A study of Homo sapiens with 24 samples.

Results

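The nectins and several other cell adhesion molecules were followed in the gene expression profiles of U87 MG cells, a human glioblastoma line, after proton therapy (PT) with or without Si306, a SRC inhibitor. The genes were taken by name and were the poliovirus receptor PVR, the nectins PVRL1, PVRL2 and PVRL3 (now NECTIN1, NECTIN2 and NECTIN3), the neuroligin NLGN1, CLDN1, ICAM1, CDH2, L1CAM and NCAM1. These 10 genes had 16 probes, among 41000 probes and 30982 gene names on the array. The list was chosen by the rise of PVR after 2 Gy and of NLGN1 with Si306, so these values are described here without a test. All cells were collected 24 h after treatment. In U87 2 Gy and U87 10 Gy, RNA of irradiated cells carried Cy5 and RNA of untreated U87 cells carried Cy3. In U87 Si306 + 2 Gy and its 10 Gy counterpart, RNA of cells given 10 µM Si306 and protons carried Cy5, and RNA labelled as PT alone at the same dose carried Cy3. A log2 ratio is therefore treated over control on the same array, and for the Si306 arrays the control had been irradiated as well. Neither Si306 without protons nor a dye swap was part of the design.

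Nectins are immunoglobulin-like proteins that bind each other and their relatives across cell junctions and are tied to actin by afadin. PVR and PVRL2 are also ligands of receptors on natural killer and T cells, activating ones such as CD226 and inhibitory ones such as TIGIT. Neuroligins sit on the postsynaptic side of nerve contacts and bind neurexins, cadherins hold cells together through catenins, and claudins seal tight junctions.

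Each configuration had 6 tables, called biological replicates in their labels, but the 24 headers name 8 arrays that were scanned 3 times. Scans of an array were averaged, giving n = 2 arrays in each configuration. No label says that the arrays of a configuration came from different cultures, so p-values measure the spread between arrays only. A scan labelled U87 2 Gy and a scan labelled U87 10 Gy each lay on an array of the other dose and were left out. The number of arrays limits the precision.

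Slide 1 held PT alone and slide 2 held the combined treatment, and the RNA differed more between the slides than between any treatments on the same slide. RNA labelled as U87 after 2 Gy was present on both slides, in Cy5 on slide 1 and in Cy3 on slide 2, and so was that after 10 Gy. Across the tested genes, the log2 intensities of RNAs on the same slide had rank correlations of 0.985 to 0.996 (9 pairs of RNAs), against 0.805 to 0.821 between the slides (12 pairs). Between slides, 8.03% to 9.39% of the genes were at least 4-fold apart, against at most 0.316% within a slide. These correlations are over genes, which are not independent replicates.

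CDH2, the N-cadherin gene, was measurable on slide 1 alone. Its probe had log2 intensities of 9.92 to 10.50 in both dyes of the 4 arrays on slide 1. On slide 2 it was at 5.81 to 6.12 and not well above background in either dye of any array. For the RNAs labelled as PT alone, which carried Cy5 on slide 1 and Cy3 on slide 2, CDH2 was at least 15.7-fold higher on slide 1, a bound set by the lowest signal well above background on slide 2 and open to dye bias. PVRL1 went the other way, with a 6.13-fold higher signal for PT alone on slide 2, and ICAM1 was 2.07-fold and the brightest PVRL3 probe 2.00-fold higher there. PVR and PVRL2 were 2.11-fold and 2.25-fold higher on slide 1, whereas the signal of slide 2 over that of slide 1 was 1.07-fold for NLGN1 and 0.971-fold for CLDN1.

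Several markers of cell identity divided along the same line. KRT19, a keratin of epithelial cells, had log2 intensities of 7.35 to 7.49 on slide 1 and of 16.56 to 16.98 on slide 2, and TACSTD1, the array's name for EPCAM, had 5.82 to 6.52 and 10.72 to 11.30. PECAM1 and SOX2 were detected in both dyes of all arrays on slide 2, but PECAM1 in none and SOX2 on 1 of its 2 probes in a single channel on slide 1. CDH5, an endothelial marker like PECAM1, went the other way, above background in 3 of 8 channels on slide 1 and in 0 on slide 2. CDH1 was not well above background on any array. Of 8 markers of glioblastoma or neural stem cells, 5 were detected in both dyes of all arrays on slide 1 and 6 on slide 2, among them VIM, CD44, FN1 and NES on both, while 1 of 3 epithelial markers on slide 1 and 2 on slide 2 were. OLIG2 was above background in 7 of 8 channels on slide 1 and in none on slide 2, and GFAP was so on both slides on 1 of its 3 probes. Of 3 blood markers, 0 were detected in every channel on either slide. The probes of CD3E, one of them, were above background in 7 and 6 of 8 channels on slide 1 and in 5 and 4 on slide 2. The RNA of slide 2, control and Si306-treated alike, thus stood apart from that of slide 1, although all labels read U87. For this reason the control of slide 2 is called here by its label, and each log2 ratio is read within its slide. Between the slides, the effect of Si306 cannot be told apart from whatever else set the slides apart. With each slide fitted on its own, the numbers of members called were 6, 7, 5 and 3 in the order U87 2 Gy, U87 10 Gy, Si306 with 2 Gy and Si306 with 10 Gy. In the fit of all arrays they were 6, 8, 5 and 3. The share of all genes called with each slide on its own is not set beside them, so they are no result about the members.

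**Figure D1:**
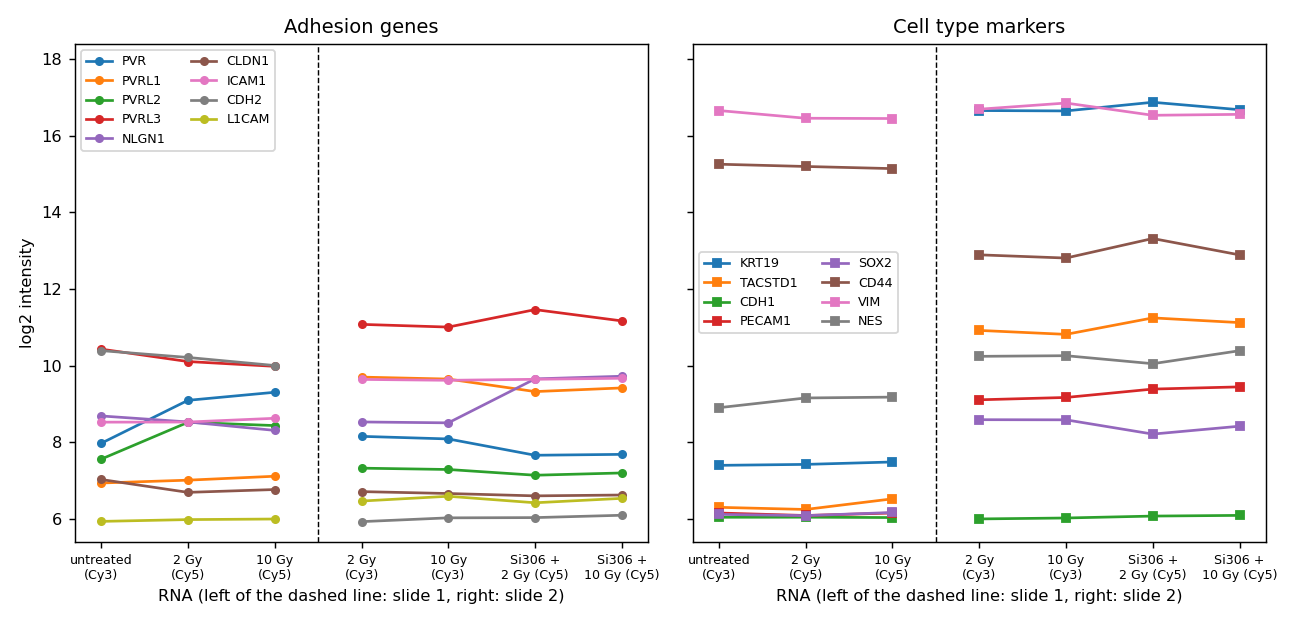
Mean log2 intensity (y axis) of the brightest probe of each adhesion gene (left) and of cell type markers (right) in the 7 RNAs of the study (x axis, with the dye), slide 1 to the left of the dashed line and slide 2 to the right; each point is the mean over the arrays that carry the RNA. CDH2 lies between 9.92 and 10.50 on slide 1 and between 5.81 and 6.12 on slide 2, and KRT19 between 7.35 and 7.49 and between 16.56 and 16.98.

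The probes are 60 bases long and their hg17 coordinates are those of the array files, which give no exon or UTR annotation. Of the 16 probes, 13 passed the filter, which required a signal well above background in either dye on at least 2/3 of the arrays of a configuration, which for a pair means both, and 9 of the 10 genes had such a probe. NCAM1, a neural cell adhesion molecule, had none, and its log2 intensities were 5.97 to 6.17 on slide 1 and 5.88 to 5.96 on slide 2. CLDN1 and L1CAM each had a second probe that did not pass. Because some genes are read by several probes that gave different answers, 3 nectin probe sequences that the results turn on are given as on the array, 5′ to 3′ in the sense of the transcript, with no base set apart by capitals. They are the second PVR probe (chr19:49853938-49853997, plus strand), which lies 3980 bases upstream of the brightest one, the single PVRL2 probe (chr19:50069466-50069525, plus strand) and the brightest PVRL3 probe (chr3:112335430-112335489, plus strand).
PVR probe 2: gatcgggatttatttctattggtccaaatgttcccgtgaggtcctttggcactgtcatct
PVRL2 probe 1: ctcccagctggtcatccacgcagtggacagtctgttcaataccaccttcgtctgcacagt
PVRL3 probe 1: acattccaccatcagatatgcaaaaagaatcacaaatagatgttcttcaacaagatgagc

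For the brightest probe of each gene, the test asked whether the mean log2 ratio of a configuration differed from 0 (limma, adjusted p under 0.05 over all genes tested). The values that chose the list, PVR in U87 2 Gy and NLGN1 with Si306, were left out of the counts. In the other configurations PVR and NLGN1 were counted. In U87 2 Gy, 6 of the 8 genes that remained were called, 2 higher and 4 lower, against 57.2% of all genes (32.2% higher, 25% lower). In U87 10 Gy, 8 of 9 were called, 4 higher and 4 lower, against 57.5% (31.2% higher, 26.3% lower). In U87 Si306 + 2 Gy, 5 of 8 were called, 1 higher and 4 lower, against 66.5% (38.6% higher, 27.9% lower). In U87 Si306 + 10 Gy, 3 of 8 were called, 1 higher and 2 lower, against 62.4% (35.2% higher, 27.2% lower). The median log2 fold change of the genes so counted was -0.09, 0.03, -0.08 and -0.05 in this order, against 0.02, 0.02, 0.04 and 0.03 over all genes. These counts hold 1 gene in each configuration that had no signal well above background there, L1CAM after PT and CDH2 with Si306, neither of them called. L1CAM with Si306 had its signal in Cy5 alone and was not called either. Among the genes with such a signal on both arrays, the counts were 6 of 7, 8 of 8, 5 of 7 and 3 of 7, against 61.4%, 59.9%, 70.9% and 66.8% of all genes. A call alone thus sets no gene apart, and the sizes are what follows. With a change of at least 2-fold as a further condition for DEGs, 0 of 8 genes in U87 2 Gy were DEGs against 0.727% of all genes, and 1 of 9 in U87 10 Gy against 0.967%. With Si306 the DEGs were 0 of 8 against 0.727% at 2 Gy and 0 of 8 against 0.372% at 10 Gy. The DEG was PVR, and the values that chose the list are not counted here. As its rise after 2 Gy on the same slide chose the list, neither this DEG nor its call in U87 10 Gy is independent support. With median centring PVRL2 was above 2-fold as well, at 1.19 and 1.25 after PT.

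**Figure D2:**
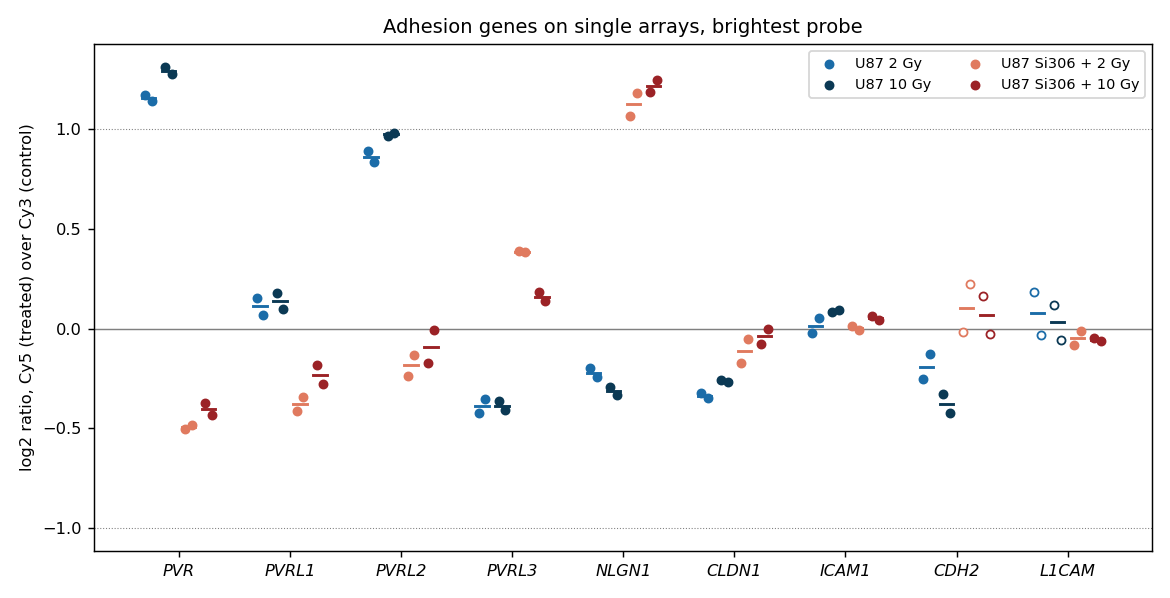
Log2 ratio of treated over control (y axis) for the brightest probe of each adhesion gene (x axis, with PVR first) in the 4 configurations (colours); points are the 2 arrays, lines their mean, dotted lines mark 2-fold, and open points mark probes not well above background in either dye. PVR and PVRL2 lie above 0 on the arrays of PT alone and below 0 on those with Si306 (PVRL2 in PT alone turned negative in the separate-channel model), and NLGN1 does the reverse.

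PVR was 2.23-fold higher in irradiated than in untreated cells after 2 Gy. Its log2 ratios were 1.18 and 1.14 on the arrays of U87 2 Gy, a mean of 1.16 ± 0.02 (SD, n = 2). On the arrays of U87 10 Gy they were 1.31 and 1.28, so the values of the doses did not overlap. PVR was 2.46-fold up regulated after 10 Gy, at 1.30 on the log2 scale (SE 0.03, adjusted p = 2.03e-10, limma), and was number 123 of 22846 genes in order of log2 fold change, against number 111 of 22830 after 2 Gy. U87 2 Gy and U87 10 Gy share a slide and untreated cells as control, so these are not independent observations. The rise after 2 Gy chose the list, so the test of PVR in U87 10 Gy gives no independent support. With Si306, PVR was down regulated, with log2 ratios of -0.50 and -0.48 at 2 Gy and of -0.37 and -0.44 at 10 Gy. The means were -0.49 (SE 0.03, adjusted p = 2.83e-07, limma) and -0.40 (SE 0.03, adjusted p = 1.58e-06). All 4 arrays with Si306 lay below 0 and all 4 of PT alone above. The sizes depended on the processing. In U87 2 Gy the value was 0.76 with the mean of both probes and 0.10 (SE 0.06) in the separate-channel model, which fits the dyes as channels of their own. In U87 10 Gy the value was 0.83 with the mean of both probes and 0.19 (adjusted p = 0.00559) in the separate-channel model. With Si306 it was -0.10 at either dose (adjusted p = 0.0358 and 0.0309) with the mean of both probes, -0.13 and -0.15 with median centring and -1.55 and -1.50 in the separate-channel model. The median-centred values differ by -0.56 and -0.41 from the all-gene medians of 0.44 and 0.26 under that scaling. In intensity, PVR stood at 7.97 on the log2 scale in untreated cells, at 9.09 after 2 Gy and at 9.30 after 10 Gy on slide 1. On slide 2, it stood at 8.15 and 8.08 in the RNAs labelled as PT alone and at 7.66 and 7.68 with Si306, so the control of the Si306 arrays had a PVR signal near that of untreated cells of slide 1. Since the arrays measured whole cultures, fewer cells with the transcript and less RNA in each cell cannot be told apart.

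The second PVR probe was dim and gave a smaller ratio. It had log2 ratios of 0.25 and 0.47 in U87 2 Gy, where its control was not well above background, so that it was at least 1.28-fold higher in irradiated cells. In U87 10 Gy it had 0.38 and 0.34, a mean of 0.36 (SE 0.05, adjusted p = 0.000113, limma). Both probes were thus higher after PT on every array, and the brightest probe gave the larger value. On slide 2 the second probe was not well above background in either dye, and no direction is drawn from it there.

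PVRL2, which shares receptors with PVR, was also up regulated by PT. Its log2 ratios were 0.89 and 0.84 in U87 2 Gy and 0.97 and 0.98 in U87 10 Gy. The arrays of each dose lay close together, and all 4 were under 2-fold, at 1.79-fold to 1.97-fold. The log2 fold changes of 0.86 (SE 0.04, adjusted p = 5.75e-08, limma) and 0.97 (SE 0.04, adjusted p = 1.68e-08) correspond to 1.82-fold and 1.97-fold. With median centring they were 1.19 and 1.25, above 2-fold, against all-gene medians of 0.27 and 0.23 under that scaling. Whether PVRL2 passed 2-fold after PT thus depended on the scaling. PVRL2 was lower with Si306 at 2 Gy, with log2 ratios of -0.24 and -0.13 and a mean of -0.18 (SE 0.04, adjusted p = 0.00310, limma). Without the first of these arrays the adjusted p was 0.0914. In U87 Si306 + 10 Gy, the ratios were -0.17 and -0.01, and the log2 fold change of -0.09 did not pass the test (SE 0.04, adjusted p = 0.0907, limma). It was -0.17 with an adjusted p of 0.0236 without the second array and -0.14 with an adjusted p of 0.0170 once a trend with probe GC content was removed. Median centring gave -0.09 (adjusted p = 0.143) at 2 Gy and -0.01 (adjusted p = 0.930) at 10 Gy, which differ by -0.52 and -0.27 from the all-gene medians of 0.44 and 0.26 under that scaling. The rises of PVRL2 after PT held under every scaling but 1, since the separate-channel model gave -0.27 and -0.24, and it gave -1.35 and -1.27 with Si306. This model takes RNA labelled alike to be the same on both slides, which the intensities above go against.

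PVRL1 changed little on slide 1, where its signal was low, and fell with Si306 on slide 2, where it was bright. In U87 2 Gy its log2 ratios were 0.15 and 0.07, and in U87 10 Gy they were 0.18 and 0.10. The log2 fold changes of 0.11 (SE 0.04, adjusted p = 0.0315, limma) and 0.14 (SE 0.04, adjusted p = 0.0107) were both lost without the first array of the dose (adjusted p = 0.313 and 0.183). With Si306, the ratios were -0.41 and -0.34 at 2 Gy and -0.18 and -0.28 at 10 Gy, all 4 below 0. Their means were -0.38 (SE 0.04, adjusted p = 8.84e-06, limma) and -0.23 (SE 0.04, adjusted p = 0.000396). They turned positive with median centring (0.35 and 0.26, against an all-gene median of 0.44 and 0.26 under that scaling) and in the separate-channel model (2.25 and 2.38), and with the mean of its probes the value at 2 Gy was -0.09 (adjusted p = 0.0769). The separate-channel model also gave 2.73 and 2.75 after PT. A second PVRL1 probe, listed under another transcript record of the gene and 15897 bases away, was not well above background in any channel of slide 2. Which transcripts it reads was not tested. On slide 1 it had log2 ratios of -0.07 and 0.26 in U87 2 Gy and of 0.11 and 0.19 in U87 10 Gy. Its control was not well above background there, so no direction is drawn from it.

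PVRL3, a strong binding partner of PVRL1, was read by 3 probes that did not move alike. Probe 1 is listed under a different transcript record than probes 2 and 3, and which transcripts each of them reads was not tested. Probe 1, the brightest, had log2 ratios of -0.42 and -0.35 in U87 2 Gy and of -0.36 and -0.41 in U87 10 Gy. Probe 2, which starts 920 bases downstream, had 0.53 and 0.42 in the former and 0.48 and 0.47 in the latter. Probe 3, 322 bases downstream of probe 1, had -0.02 and -0.00 in U87 2 Gy and 0.21 and 0.19 in U87 10 Gy. After PT, probe 1 was thus lower (-0.39 at either dose, SE 0.03, adjusted p = 3.03e-06 and 2.58e-06, limma), probe 2 higher (0.47 at either dose, SE 0.04, adjusted p = 8.84e-07 and 7.18e-07, limma over probes) and probe 3 higher at 10 Gy (0.20, SE 0.03, adjusted p = 0.000222) with -0.01 at 2 Gy (adjusted p = 0.750). On slide 1 by itself, probe 2 was the brightest, so that fitting each slide on its own gave 0.47 for the gene at either dose, and median centring and the separate-channel model turned the sign of probe 1. No direction is given for PVRL3 after PT.

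With Si306, the PVRL3 probes differed too, but they shared a difference between the doses. Probe 1 had log2 ratios of 0.39 and 0.38 at 2 Gy and of 0.19 and 0.14 at 10 Gy, on average 0.39 (SE 0.03, adjusted p = 2.26e-06, limma) and 0.16 (SE 0.03, adjusted p = 0.00162). Probe 3 was close to it, with means of 0.36 (adjusted p = 2.10e-06) and 0.18 (adjusted p = 0.000517). Probe 2 had means of 0.02 (SE 0.04, adjusted p = 0.677, limma over probes) and -0.26 (SE 0.04, adjusted p = 8.44e-05). On every probe, both arrays with 10 Gy lay below both with 2 Gy. The mean of the probes was 0.25 at 2 Gy and 0.03 (adjusted p = 0.430) at 10 Gy, where the call was lost. For probe 1, median centring gave 1.30 and 0.75 and the separate-channel model 1.39 and 1.16.

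**Figure D3:**
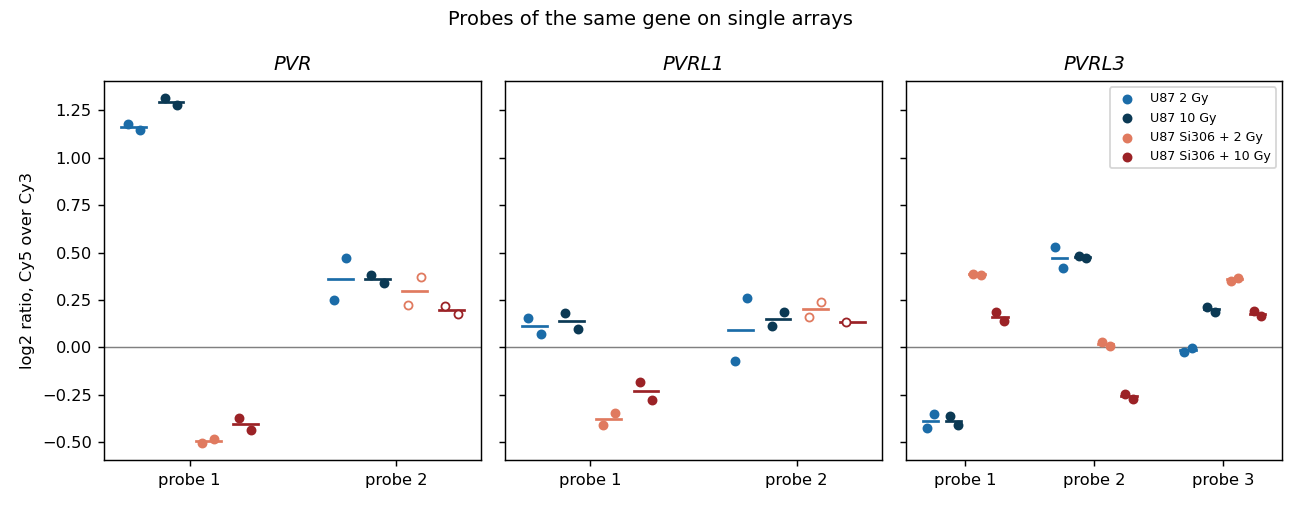
Log2 ratio of treated over control (y axis) of each probe (x axis) of PVR, PVRL1 and PVRL3 on single arrays (points) with the mean (lines), coloured by configuration; open points mark probes not well above background in either dye. The PVRL3 probes take opposite signs after PT, with -0.39 on probe 1 and 0.47 on probe 2, and on the arrays with Si306 each of them is lower at 10 Gy than at 2 Gy.

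NLGN1, the neuroligin of excitatory synapses, was 2.18-fold and 2.33-fold higher with Si306. Its log2 ratios were 1.07 and 1.18 at 2 Gy and 1.19 and 1.25 at 10 Gy, means of 1.13 ± 0.08 and 1.22 ± 0.04 (SD, n = 2). This placed NLGN1 as number 82 of 22823 and number 41 of 22845 genes in order of log2 fold change. Median centring gave 1.79 and 1.67, the scanner software's log ratio 1.34 and 1.46 and the separate-channel model 1.22 and 1.32. In intensity, it went from 8.53 and 8.50 on the log2 scale in the RNAs labelled as PT alone to 9.65 and 9.72 with Si306. After PT the gene was lower, with log2 ratios of -0.20 and -0.24 in U87 2 Gy and of -0.29 and -0.33 in U87 10 Gy. All 4 arrays of slide 1 were below 0, with means of -0.22 (SE 0.04, adjusted p = 0.000423, limma) and -0.31 (SE 0.04, adjusted p = 2.87e-05). With median centring they were 0.19 and 0.04, which is 0.08 and 0.19 below the all-gene median of 0.27 and 0.23 under that scaling. In the separate-channel model the value in U87 2 Gy was -0.12 (adjusted p = 0.0687).

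CLDN1, a claudin of epithelial tight junctions, was down regulated on every array of PT alone. Its log2 ratios were -0.32 and -0.35 in U87 2 Gy and -0.26 and -0.27 in U87 10 Gy. They averaged -0.34 (SE 0.04, adjusted p = 1.98e-05, limma) and -0.26 (SE 0.04, adjusted p = 0.000113), measured on a dim probe that was well above background in both dyes of slide 1. With Si306 at 2 Gy, the ratios were -0.17 and -0.05, and the log2 fold change of -0.11 (SE 0.04, adjusted p = 0.0216, limma) was lost without the first array (adjusted p = 0.402). On the array that then remains, the control of CLDN1 was not well above background, whereas the probe was so in both dyes of the other 3 arrays of slide 2. At 10 Gy, it was -0.04 (SE 0.04, adjusted p = 0.380, limma), with a 95% interval of -0.12 to 0.04. With median centring it passed, at -0.18 (adjusted p = 0.00563), and was -0.37 at 2 Gy, against all-gene medians of 0.26 and 0.44 under that scaling. The scanner software's log ratio gave -0.81 and -0.64 after PT and -0.41 and -0.29 with Si306 (adjusted p = 0.0415 and 0.112).

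CDH2 could be followed on slide 1 alone. Its log2 ratios were -0.25 and -0.13 in U87 2 Gy and -0.33 and -0.42 in U87 10 Gy, the arrays of 10 Gy both below those of 2 Gy. The means were -0.19 (SE 0.06, adjusted p = 0.0198, limma) and -0.38 (SE 0.06, adjusted p = 0.000295). The former was lost without the first array (adjusted p = 0.234). With the scanner software's log ratio neither passed, at -0.22 (adjusted p = 0.449) and -0.42 (adjusted p = 0.164), and median centring gave 0.37 and 0.09, 0.10 above and 0.14 below the all-gene median. The separate-channel model, which sets slide 1 against the background signal of slide 2, gave -4.37 and -4.47. On slide 2 neither dye was above background and no ratio is read.

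ICAM1, a ligand of leukocyte integrins, stayed near a log2 ratio of 0. Its probe lies in 10 copies on the array, and the log2 ratios of these copies had an SD of 0.0369 to 0.0741 within an array. The means of the arrays were -0.02 and 0.05 in U87 2 Gy, 0.08 and 0.10 in U87 10 Gy, 0.01 and -0.01 with Si306 and 2 Gy and 0.07 and 0.04 with Si306 and 10 Gy. In U87 10 Gy, the log2 fold change of 0.09 passed the test (SE 0.03, adjusted p = 0.0344, limma), but not without either of its arrays (adjusted p = 0.126 and 0.175) and not with slide 1 fitted on its own (0.0628). In the other configurations, the 95% intervals were -0.06 to 0.09, -0.07 to 0.07 and -0.02 to 0.12. With median centring ICAM1 was called higher in all 4 configurations, at 0.14 to 0.32 above the all-gene median of that scaling, and in the separate-channel model it was at 1.07 to 1.13. L1CAM, a neuronal adhesion molecule, was not above background on slide 1. On slide 2 it was so in Cy5 alone, at mean log2 intensities of 6.41 at 2 Gy and 6.53 at 10 Gy. Its control in Cy3 was not well above background on any array, at 6.46 and 6.58, so no fold change is given and no direction is read from its ratios.

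The doses were compared with each other on the same slide. Between U87 10 Gy and U87 2 Gy, 0 of 8 genes differed in limma, against 21.1% of all genes, and 0 of the 8 had an unadjusted p under 0.05. L1CAM, without a signal on slide 1, is among these 8, and CDH2 among the 8 with Si306. The difference closest to the limit was that of CDH2, -0.19 (SE 0.09, adjusted p = 0.159), with a 95% interval of -0.38 to 0.00. PVRL2 differed by 0.11 (95% interval -0.02 to 0.25) and PVRL3 by 0.00 (-0.10 to 0.10), while PVR, without a test, was 0.14 higher after 10 Gy. On its probe 3, however, PVRL3 was 0.21 higher after 10 Gy (SE 0.04, adjusted p = 0.00720, limma over probes). Between the doses with Si306, 1 of 8 genes differed, against 22.7% of all genes. This was PVRL3, at -0.22 (SE 0.05, adjusted p = 0.00750, limma), and probes 2 and 3 gave -0.28 (SE 0.05, adjusted p = 0.00369, limma over probes) and -0.18 (SE 0.04, adjusted p = 0.0153). Without the second array of U87 Si306 + 10 Gy, the value was -0.20 with an adjusted p of 0.0662. PVRL1 (0.15, SE 0.06, adjusted p = 0.0838, limma) and PVR (0.09, SE 0.05, adjusted p = 0.182) did not pass the test, with 95% intervals of 0.02 to 0.27 and -0.01 to 0.19.

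A list of other adhesion genes was set beside these, with 98 genes on the array and 66 tested. In U87 2 Gy, 27 were higher and 8 lower (53% called against 57.2% of all genes), and in U87 10 Gy 26 and 9 (53% against 57.5%). With Si306 and 2 Gy, 30 were higher and 10 lower (60.6% against 66.5%), and with Si306 and 10 Gy 32 and 11 (65.2% against 62.4%). Of the 52, 57, 51 and 52 list genes with a signal well above background in the configuration itself, 61.5%, 59.6%, 62.7% and 73.1% were called, against 61.4%, 59.9%, 70.9% and 66.8% of all such genes. Between the doses, 12 list genes differed after PT (18.2% against 21.1% of all genes) and 19 with Si306 (28.8% against 22.7%). The medians over the list were 0.07, 0.06, 0.08 and 0.09 on the log2 scale, against 0.02, 0.02, 0.04 and 0.03 over all genes. The leukocyte-binding immunoglobulin superfamily had the highest class median in each of the 4 configurations, at 0.27, 0.26, 0.16 and 0.24 over 10 genes. Of these, 6 were higher and 1 lower in U87 2 Gy, U87 10 Gy and U87 Si306 + 2 Gy (70% called against 57.2%, 57.5% and 66.5% of all genes), and 7 were higher and 2 lower with Si306 and 10 Gy (90% against 62.4%). The neuroligin and neurexin class came next after PT, at 0.26 and 0.25 over 6 genes, but had -0.10 and 0.04 with Si306. In the leukocyte-binding class, ICAM3, a ligand of leukocyte integrins, was higher in all 4 configurations, at 0.55, 0.45, 0.83 and 0.75 (adjusted p from 8.34e-09 to 5.67e-07, limma). In the separate-channel model it was -0.23 and -0.30 after PT, and with Si306 it was 0.05 (adjusted p = 0.260) and -0.00 (adjusted p = 0.925). Of 20 cadherins and catenins, 6 were higher and 5 lower in U87 2 Gy and 8 and 6 in U87 10 Gy. This is 55% and 70% called, against 57.2% and 57.5% of all genes. Of the 16 and 19 with a signal well above background there, 62.5% and 73.7% were called, against 61.4% and 59.9% of all such genes. With Si306 and 2 Gy, 12 were higher and 0 lower (limma), 60% against the 66.5% of all genes, of which 38.6% were higher and 27.9% lower. With Si306 and 10 Gy, 10 were higher and 1 lower, 55% against 62.4%. Of the cadherins and catenins with a signal well above background in the configuration itself, 10 of 15 were higher and 0 lower with Si306 and 2 Gy and 10 of 15 higher and 1 lower with Si306 and 10 Gy, which is 66.7% and 73.3% called against 70.9% and 66.8% of all such genes. Without the first array of the former, 26 genes of the whole list were called there in place of 40. Of 19 claudins and tight junction genes, 6 to 7 were higher and 0 to 4 lower in each configuration, so that 36.8%, 31.6%, 42.1% and 57.9% were called, against 57.2%, 57.5%, 66.5% and 62.4% of all genes. Of the 15 or 16 of these with a signal, 46.7%, 33.3%, 40% and 62.5% were called.

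The partners of the nectins were few, and 5 of 10 could be tested. Afadin, listed as MLLT4, was higher in U87 2 Gy (0.19, SE 0.04, adjusted p = 0.00281, limma), with Si306 and 2 Gy (0.28, adjusted p = 0.000145) and with Si306 and 10 Gy (0.29, adjusted p = 0.000128), and had 0.04 in U87 10 Gy (adjusted p = 0.477). These are values of its brightest probe, and the call in U87 2 Gy was lost without the first array (adjusted p = 0.0960). Its 2 other probes had -0.00 and -0.09 in U87 2 Gy, -0.01 and -0.21 in U87 10 Gy (adjusted p = 0.784 and 0.00100), 0.15 and -0.15 with Si306 and 2 Gy and 0.08 and -0.14 with Si306 and 10 Gy, so that MLLT4 has no direction that its probes share. For the brightest probe, median centring gave 0.70, 0.47, 1.17 and 0.87 and the separate-channel model 1.34, 1.22, 1.44 and 1.47 in the order of the configurations. The nectin-like IGSF4, now CADM1, was lower after PT on both its probes, at -0.18 and -0.50 on the brightest and at -0.61 and -0.92 on the other. With Si306 the brightest had -0.11 and -0.17 (adjusted p = 0.00821 at 2 Gy, lost without its first array at 0.105) and the other 0.06 and 0.20. The call at 2 Gy was also lost with the mean of probes (-0.02, adjusted p = 0.555) and with the scanner software's log ratio (-0.09, adjusted p = 0.0512), and the mean of probes gave 0.01 at 10 Gy (adjusted p = 0.782). Median centring gave 0.37 in U87 2 Gy, -0.05 in U87 10 Gy (adjusted p = 0.445) and 0.62 and 0.31 with Si306, against all-gene medians of 0.27, 0.23, 0.44 and 0.26. IGSF4B, now CADM3, was measurable on slide 1 alone and had 0.11 (adjusted p = 0.0217, limma) and 0.13 (adjusted p = 0.0109) after PT, which removing the trend with GC content took to -0.01 and 0.01 and the separate-channel model, which here draws on the background signal of slide 2, to -0.15 and -0.14. Median centring gave -0.07 and -0.01, and the scanner software's log ratio 0.40 and 0.44 (adjusted p = 0.130 and 0.104). Without the first array of U87 2 Gy and the second of U87 10 Gy these were lost as well (adjusted p = 0.271 and 0.192). Of the receptors on lymphocytes, CD226 and TIGIT (VSIG9 on the array) had no probe that passed the filter. CD96, a receptor of PVR, was on its brightest probe well above background in both dyes on slide 2 and in neither on slide 1. With Si306 its brightest probe had 0.50 (SE 0.03, adjusted p = 1.97e-07, limma) and 0.19 (SE 0.03, adjusted p = 0.000372). The latter call was lost with the mean of its probes (0.06, adjusted p = 0.168). Of its other probes, one had 0.07 and -0.09 with Si306 (adjusted p = 0.251 and 0.155), and the other 0.17 (adjusted p = 0.00141) and 0.08 (adjusted p = 0.0615). After PT the former had 0.14 and 0.22 (adjusted p = 0.0444 and 0.00474, limma over probes) and the latter -0.17 and -0.10 (adjusted p = 0.00216 and 0.0367), so they went opposite ways. CRTAM, a receptor of nectin-like proteins, was likewise measurable on slide 2 alone and had 0.13 (SE 0.05, adjusted p = 0.0250) and 0.31 (SE 0.05, adjusted p = 0.000165) with Si306. The former was lost without either array of its configuration (adjusted p = 0.259 and 0.0506) and with the GC trend removed (0.11, adjusted p = 0.0529). Median centring gave 1.31 and 0.71 for CD96 and 0.39 and 0.51 for CRTAM, of which the 0.39 lies under the all-gene median of 0.44. The separate-channel model sets both against slide 1, where their brightest probes had no signal well above background, and its values are not read. Of 6 neuroligin and neurexin genes, 4 were higher and 0 lower in U87 2 Gy and 4 and 1 in U87 10 Gy, which is 66.7% and 83.3% called against 57.2% and 57.5% of all genes. With Si306, 1 was higher and 4 lower at 2 Gy (83.3% against 66.5%) and 1 and 2 at 10 Gy (50% against 62.4%), but 3 of the 6 had a signal well above background on both arrays there, of which 0 were higher and 3 lower at 2 Gy and 1 higher and 1 lower at 10 Gy (100% and 66.7% called, against 70.9% and 66.8% of all genes with such a signal). DLG4, a scaffold protein that binds neuroligins, had 0.95 in U87 2 Gy and 0.55 in U87 10 Gy on its brightest probe, against -0.43 and -0.30 on the arrays with Si306 (adjusted p from 2.22e-08 to 9.68e-05, limma). Its other probe had 0.08 and 0.05 after PT (adjusted p = 0.0827 and 0.276) and 0.24 and 0.10 with Si306 (adjusted p = 0.000134 and 0.0287), so these values rest on 1 of its probes. NLGN2, the neuroligin of inhibitory synapses, went opposite to NLGN1 after PT, with 0.40 (SE 0.04, adjusted p = 3.54e-06, limma) and 0.51 (SE 0.04, adjusted p = 4.90e-07), and had -0.20 and 0.05 with Si306. The separate-channel model turned NLGN2 after PT (-0.38 and -0.29) and with Si306 and 10 Gy (-0.75), and with Si306 and 2 Gy median centring gave 0.42, which is 0.02 below the all-gene median of 0.44. At 10 Gy median centring gave NLGN2 0.48 (adjusted p = 2.88e-09), 0.22 above the all-gene median of 0.26. DLG4 in the separate-channel model was at 0.02 in U87 2 Gy (adjusted p = 0.843) and at -0.23 in U87 10 Gy. ALCAM, an adhesion molecule of activated leukocytes and neurons, was lower in U87 2 Gy, at -0.41, and higher on the arrays with Si306, at 0.94 and 0.65 (limma). In U87 10 Gy it was at -0.86 on 1 array, as its spot on the other was an outlier and was left out, so that its own group gives no spread there. Median centring turned the value in U87 2 Gy (0.13, adjusted p = 0.0320, against an all-gene median of 0.27). The other ALCAM probe was lower after PT as well, at -0.31 and -0.44, but had -0.14 and 0.07 with Si306. The genes of the list named so far were chosen after their values were seen.

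In the order of the configurations, 2, 1, 0 and 1 of the 66 list genes were DEGs of at least 2-fold, against 0.727%, 0.967%, 0.727% and 0.372% of all genes. They were CTNNB1 and CDH24, from the class of cadherins and catenins. CTNNB1, which encodes the β-catenin that anchors cadherins, was up regulated on all 8 arrays. Its log2 ratios were 1.41 and 1.43 in U87 2 Gy, 1.00 and 0.98 in U87 10 Gy, 0.66 and 0.66 with Si306 and 2 Gy and 1.03 and 1.02 with Si306 and 10 Gy. It was lower at 10 Gy than at 2 Gy on slide 1 and higher at 10 Gy on slide 2, without any overlap of arrays. Its other probe was higher in each configuration as well, with 0.85, 0.55, 0.31 and 0.26. There the doses differed by -0.30 after PT (SE 0.07, adjusted p = 0.0102, limma over probes) and by -0.05 with Si306 (adjusted p = 0.639), so that the difference with Si306 rests on 1 probe. The mean of both probes was 1.13, 0.77, 0.49 and 0.64, so that CTNNB1 with Si306 and 10 Gy was then no DEG, and median centring gave 1.99, 1.46, 1.58 and 1.65. CDH24 had 1.76 and 2.27 after PT (SE 0.04, adjusted p = 1.77e-10 and 1.20e-11, limma) and -0.04 and -0.17 with Si306. Its probe holds 81.7% GC, against a median of 43.3% over the tested probes, and its other probe had -0.04 and -0.10 after PT, so that the rise of CDH24 rests on 1 of its probes. With the GC trend removed the rise still passed the test, at 0.76 and 0.94 (adjusted p = 3.41e-08 and 5.26e-09), both under 2-fold, and the mean of probes gave 0.86 and 1.08. It also turned in the separate-channel model, at -1.10 and -0.68, and had -2.93 and -3.09 with Si306 there. The value of -0.17 with Si306 and 10 Gy was lost with the GC trend removed (-0.04, adjusted p = 0.312), with the mean of probes (-0.01, adjusted p = 0.795) and without the first array (adjusted p = 0.0507). Median centring gave 0.46 and 0.22 with Si306, 0.03 above and 0.04 below the all-gene median.

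**Figure D4:**
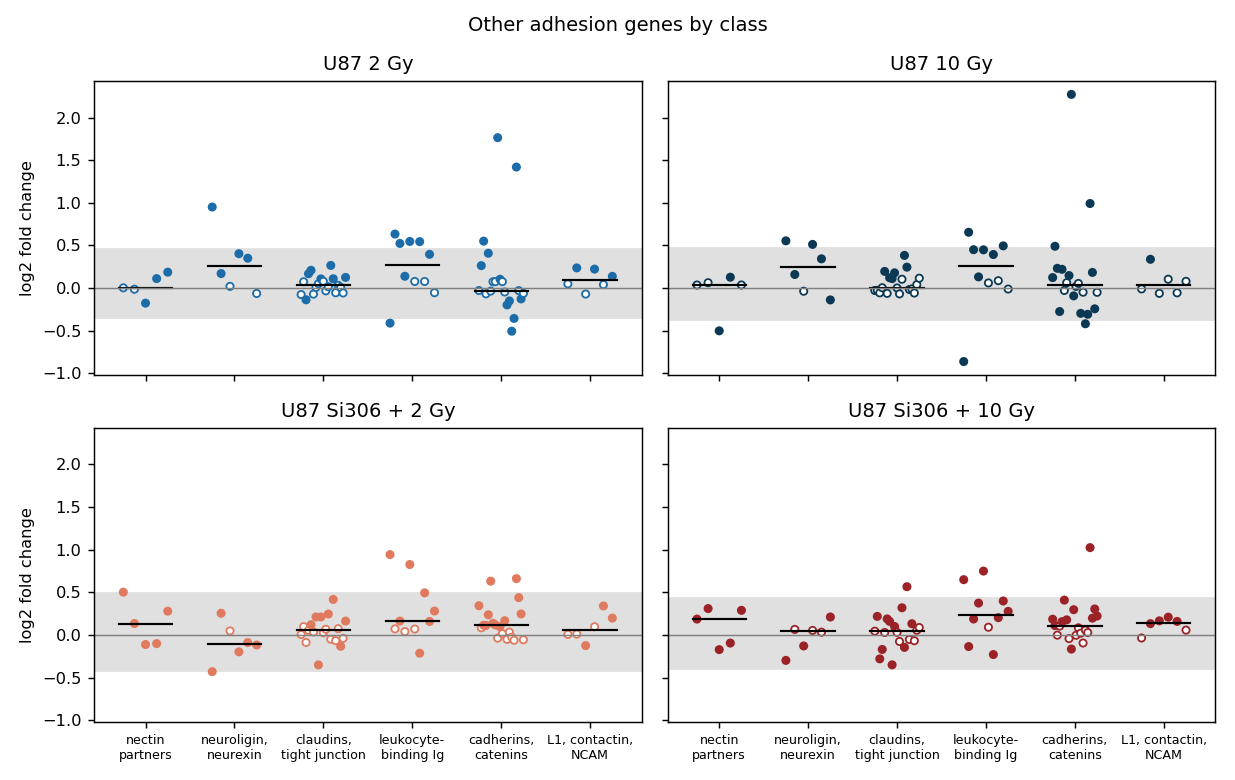
Log2 fold change (y axis) of the 66 tested genes of the adhesion list by class (x axis) in each configuration; filled points passed an adjusted p of 0.05 (limma), black lines are class medians, and the grey band holds the middle 90% of all tested genes. Most points lie within the band, and CDH24 (1.76 and 2.27) and CTNNB1 (1.42 and 0.99) stand above it after PT.

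The genes with the pattern most like PVR over the means of the 4 configurations were TUBB4, COL6A2, PITPNM1, BAALC and PSMD2, at Euclidean distances of 0.213 to 0.365 on the log2 scale among 14074 named genes. TUBB4 had log2 fold changes of 1.24 and 1.16 after PT and -0.42 and -0.28 with Si306. Those most like NLGN1 were TAF9B, SEL1L, SELM, AVPI1 and TMEM106B, at distances of 0.139 to 0.370. TAF9B had -0.12 and -0.35 after PT and 1.21 and 1.21 with Si306. Each pattern joins values of both slides.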

How the data were processed

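RNA of 4 configurations was measured on Agilent 2-colour arrays. The authors deposited scanner tables (Agilent Feature Extraction 9.5.3.1, hg17 coordinates) of 45015 spots. A spot has a mean intensity and a background intensity per dye and the log10 ratio of red over green, which the deposited series matrix repeats rounded. The intensities were used here. Control spots and outlier spots, those of the local background included, were left out. After normexp background correction (offset 50) and within-scan loess, values were averaged first over the spots of a probe and then over the scans of an array (22 of 24 scans, 8 arrays). The brightest probe that passed the filter stood for a gene name, which left 22847 of 30982 names and 30316 of 41000 probes. The fits used limma (version 3.58.1, R 4.3.3) on all arrays, with 4 residual and 6.58 prior degrees of freedom and Benjamini-Hochberg adjustment over genes, or over all kept probes where a single probe is tested. Log2 intensities were compared between slides after quantile scaling of the mean intensity. A bound against a dim control is the mean of the bright dye over the higher of the dim probe's own signal and the lowest signal well above background, and without a dye swap it is open to dye bias. The 2 scans left out had an SD of log2 differences of 0.0770 and 0.0756 to the other scans of their array and of 0.178 and 0.170 to those of their label. The method was tested on simulated data.

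The members, the adhesion list and the tests were chosen with earlier results of these data known. Named genes are the members with every probe, the list genes of at least 2-fold with adjusted p under 0.05, and the 5 genes nearest to PVR and to NLGN1, beside examples said to be chosen by value. As alternatives, background correction was omitted, the scanner's own log ratio or the matrix was used, ratios were centred on the median, the dyes were fitted as separate channels, the filter, the choice of probe and the use of the scans were changed, the replicate number was a block, a GC trend was removed, single arrays were left out and, added after the data were seen, each slide was fitted on its own. Counts over genes with a signal in the configuration itself and values of the other probes of list genes were likewise added after the data were seen.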

Additional observations from a re-analysis of the deposited data

Results flagged for a closer look

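A difference between the 2 doses under the same contrast was found by limma's test of the difference for these values, given as 10 Gy minus 2 Gy on the log2 scale. They are the members and the genes of the adhesion list named in the report, while 12 of the 66 tested list genes differed after PT alone (18.2%, against 21.1% of all genes) and 19 with Si306 (28.8%, against 22.7%). With Si306, PVRL3 differed by -0.22 on probe 1, by -0.28 on probe 2 and by -0.18 on probe 3, and on probe 3 it differed by 0.21 after PT alone. CTNNB1 differed by -0.43 after PT alone (SE 0.04, adjusted p = 0.000108) and by 0.36 with Si306 (SE 0.04, adjusted p = 0.000269), against -0.30 (adjusted p = 0.0102, limma over probes) and -0.05 (adjusted p = 0.639) on its other probe. CDH24 differed by 0.51 after PT alone (SE 0.06, adjusted p = 0.000231), against -0.07 on its other probe (adjusted p = 0.536). ALCAM differed by -0.45 after PT alone (SE 0.06, adjusted p = 0.000964, with 1 array at 10 Gy, assumed to vary like the other groups) and by -0.29 with Si306 (SE 0.05, adjusted p = 0.00340), against -0.14 (adjusted p = 0.228) and 0.21 (adjusted p = 0.0658) on its other probe. DLG4 differed by -0.40 after PT alone (SE 0.06, adjusted p = 0.00106), against -0.03 on its other probe (adjusted p = 0.728). IGSF4 differed by -0.32 after PT alone (SE 0.04, adjusted p = 0.000644) and by -0.31 on its other probe (adjusted p = 0.00898), and NLGN2 by 0.25 with Si306 (SE 0.05, adjusted p = 0.00600). CD96 differed by -0.32 with Si306 (SE 0.04, adjusted p = 0.000827), against -0.17 and -0.09 on its other probes (adjusted p = 0.146 and 0.244). Configurations of 2 arrays are too small for a test of outlying arrays.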

How the results depend on the processing

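Over the alternatives, PVR had values from 0.104 (SE 0.0562) to 1.56, from 0.191 to 1.67, from -1.55 to -0.0978 and from -1.50 to -0.103 in the order U87 2 Gy, U87 10 Gy, Si306 with 2 Gy and Si306 with 10 Gy, and NLGN1 had values from 1.07 to 1.79 and from 1.19 to 1.67 with Si306. The PVR values in U87 2 Gy and those of NLGN1 with Si306 chose the list and support nothing. Of the called log2 ratios of the members and named list genes and the untested ones of PVR and NLGN1, median centring turned 16 of 60 and made 5 smaller and 22 larger by over 1.5 times, the separate-channel model turned 16 of 56 and made 5 smaller and 25 larger, the mean of probes turned 3 of 60 and made 25 smaller, and the scanner's log ratio turned 0 and made 15 larger. Median centring leaves a trend of the ratio with intensity in place, and moved the median of all genes to 0.27, 0.23, 0.44 and 0.26 in this order. The signs turned for CDH2 (0.37 and 0.0868), NLGN1 (0.19 and 0.0354) and PVRL3 (0.17 and 0.0891) at 2 Gy and 10 Gy of PT alone, and for PVRL1 (0.35 and 0.26) with Si306. Relative to these medians, these values lay between -0.19 and 0.10. In the separate-channel model, which by construction takes RNA labelled alike as the same on both slides, PVRL2 (-0.27 and -0.24) and PVRL3 (0.63 and 0.59) turned after PT, L1CAM (0.48 and 0.50, against a control not above background) and PVRL1 (2.25 and 2.38) with Si306, and PVR after 2 Gy was 0.10. PVRL3 after PT was 0.0246 and 0.10 with the mean of its probes, and 0.47 at 2 Gy and 0.47 at 10 Gy with each slide on its own, where another probe stands for it. The mean of both PVR probes gave 0.76 in U87 2 Gy.

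The number of members called with Si306 and 10 Gy, 3, was 7 with median centring, 7 in the separate-channel model and 5 with all 24 scans as replicates. At 2 Gy with Si306, 5 became 8 in the separate-channel model. These counts and those below come without the share of all genes called under the same alternative. They are therefore not read as results about the members or the list. Between the doses, 0 members differed after PT (limma), and 1, CDH2, did without background correction. With Si306, 1 member differed, against 5 with median centring, 2 with probes above background in both dyes on all arrays, and 3 with all 24 scans as replicates. When single arrays were left out, the numbers called ranged from 4 to 7 in U87 2 Gy, from 6 to 8 in U87 10 Gy, from 4 to 5 and from 3 to 4 with Si306 at 2 Gy and 10 Gy, from 0 to 0 between the doses of PT and from 0 to 1 between the doses with Si306. Where no cause is given, the cause was not tested. For the adhesion list, recomputed in the same ways after its values were seen, 35, 35, 40 and 43 genes were called in the order above. With probes above background in both dyes on all arrays these were 23, 22, 20 and 27 of fewer genes tested, the separate-channel model gave 53 and 56 after PT, and median centring 54 in U87 2 Gy. With single arrays left out, they ranged from 27 to 35, from 26 to 36, from 26 to 41 and from 31 to 44. Median centring turned ALCAM in U87 2 Gy (0.13), CDH24 with Si306 (0.46 and 0.22), IGSF4 in U87 2 Gy (0.37) and with Si306 (0.62 and 0.31), IGSF4B after PT (-0.0664 and -0.0052) and NLGN2 with Si306 and 2 Gy (0.42). The separate-channel model turned CDH24 (-1.10 and -0.68), ICAM3 (-0.23 and -0.30), IGSF4B (-0.155 and -0.136) and NLGN2 (-0.38 and -0.29) after PT, DLG4 in U87 10 Gy (-0.23), and with Si306 and 10 Gy ICAM3 (-0.0047) and NLGN2 (-0.75), and the mean of probes turned IGSF4 there (0.0119). Removing the GC trend turned IGSF4B in U87 2 Gy (-0.0095).

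The replicate numbers of the labels gave no sign of pairing, as the deviations of same-numbered scans had correlations of -0.0829 to 0.0922 in 30 pairs and 0 were over 0.1. Since the tables are repeat scans of 8 arrays, this cannot exclude a pairing of cultures. With the replicate number as a block, which takes scans for samples, 5 members were called with Si306 and 10 Gy, 3 (ICAM1, NLGN1 and PVRL2) differed between the doses of PT and 5 between those with Si306. The slide as a random block was not run, since each configuration lies on 1 slide. Signal over background limited CDH2 on slide 2, L1CAM, NCAM1 and the second probes of PVR, PVRL1 and CLDN1.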
